A study of Mus musculus with 6 samples.

Results

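Long noncoding RNAs (lncRNAs) were examined in 6 cell lines from the mammary gland of FVB/N mice, a group called EIC (EIC_4026, EIC_NT and EIC_7559) and a group called 16IC (16IC_1984, 16IC_4982 and 16IC_7391). The members are the genes that the deposited table annotates as lincRNA, antisense, processed_transcript, sense_intronic, sense_overlapping or bidirectional_promoter_lncRNA. They were also chosen by place and by measured level: on chromosomes 1 to 19 other than 14, with at least 300 counts summed over the 6 lines, and without H19. This gave 205 of 23449 genes in the table, and of 3184 genes with these annotations on these chromosomes at any count. All lines were female in the labels and were grown with doxycycline at 10 ug/mL, with genotypes labelled EIC/WT and 16IC/WT. As background that the labels do not state, the drug switches on wild-type ErbB2 in EIC lines, and in 16IC lines a HER2 splice form without exon 16. The medium held 10% FBS, EGF, insulin and pituitary extract. No sample was grown without doxycycline, so effects of the receptor and other line differences cannot be told apart. The meaning of NT is not given, nor are the animals behind the lines, and p-values measure the spread between these 6 samples.

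LncRNAs are transcripts of considerable length that are spliced and polyadenylated much like messenger RNA but encode no known protein. Some stay in the nucleus, such as Malat1 in nuclear speckles and Neat1, which builds paraspeckles, and others act on the gene beside them. Many are hosts: their introns or exons are cut into small nucleolar RNAs (snoRNAs), which guide chemical changes of ribosomal RNA, or into microRNAs (miRNAs), which silence messenger RNAs through a short seed sequence. Antisense and divergent lncRNAs often share a promoter with a protein-coding gene.

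The label of the set was checked against another annotation. Of the 205 members, 88 were lincRNA, 57 processed_transcript, 41 antisense, 13 bidirectional_promoter_lncRNA, 5 sense_intronic and 1 sense_overlapping. RefSeq lists 135 of them as lncRNA, 2 as transcribed pseudogenes and 11 as protein-coding, and 57 had no RefSeq entry under the same symbol. The 11 are Zfp469, Zswim6, Gm46430, Cct6a, Ifi30, Ptpmt1, 1810058I24Rik, Tmem134, Spata5l1, Tmem250-ps and Tctn2, so the set is not purely noncoding. Their median log2 fold change of 16IC over EIC was -0.03, and that of the other 190 tested members was 0.61; without 16IC_7391 these medians were 0.13 and 0.39. A total of 149 members carry only a predicted or clone name. Gene bodies of 87 members overlapped a protein-coding gene body, 69 on the opposite strand, and exons overlapped in 75. The sources used here do not say whether counting used strand, so for these members reads of both genes cannot be told apart.

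Summed counts of the members ran from 301 to 107909, with a median of 628. The members nearest to the threshold were Gm44275 (301 counts), Gm13807 (302) and F730043M19Rik (303), and Gm32856 (298), 2610203C22Rik and Sp3os (both 299) fell just short of it. As the rule uses the sum over both groups, a member could enter through 1 group or 1 line alone.

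Sequences of the small RNAs embedded in members are shown first, because 12 members hold a miRNA hairpin on their own strand, and several of these hosts stood apart in a single line. Mature sequences are from RefSeq (GRCm38.p6), 5′ to 3′, with the seed (bases 2 to 8) in capitals. These libraries measure the host transcripts and not the mature miRNAs. Members of the let-7 family, which restrain proliferation, lie in Lncppara (let-7b and let-7c-2), 6720427I07Rik (let-7d) and 3110039I08Rik (let-7a-2, not printed), and those printed share a seed.
let-7b-5p: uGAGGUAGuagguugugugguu
let-7c-5p: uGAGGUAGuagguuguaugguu
let-7d-5p: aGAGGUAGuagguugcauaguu
The miR-29 pair in A330023F24Rik, known for targeting collagen messenger RNAs, shares another seed.
miR-29b-3p: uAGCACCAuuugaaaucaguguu
miR-29c-3p: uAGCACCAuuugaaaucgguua
The other named hosts carry unrelated seeds: miR-100 and miR-125b in 3110039I08Rik, with miR-125b also inside Gm28119, miR-22 in Mir22hg, miR-31 in AL805899.1 and miR-9 in C130071C03Rik.
miR-100-5p: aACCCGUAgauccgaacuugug
miR-125b-5p: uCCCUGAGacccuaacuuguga
miR-22-3p: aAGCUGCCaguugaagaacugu
miR-31-5p: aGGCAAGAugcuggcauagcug
miR-9-5p: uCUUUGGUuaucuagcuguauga

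Levels are given in CPM, the count divided by the TMM-scaled library size in megareads. Library totals were 15621563 to 17468498 counts, and members took 0.323% to 0.749% of them, most in 16IC_7391. Spearman correlation of log2 levels over the tested members was 0.964 between 16IC_1984 and 16IC_4982 and 0.869 between EIC_4026 and EIC_7559. It was 0.698 and 0.755 between EIC_NT and the other EIC lines, and 0.578 and 0.557 between 16IC_7391 and the other 16IC lines. Between lines of different groups it was 0.437 to 0.683, and that of 16IC_7391 with EIC_4026 (0.535) was close to those with its own group. Genes are not independent replicates, and these values are descriptive. Mitochondrial genes took 0.926% to 1.5% of counts in EIC and 2.0% to 3.39% in 16IC, highest in 16IC_7391. Of 10 mammary epithelial markers all were listed, with a summed level of 2568 to 3572 CPM in EIC and 1714 to 11570 CPM in 16IC. Epcam was at 0.456 to 3.79 CPM in EIC and 51.1 to 1345 CPM in 16IC, while Krt8 and Krt18 were at 563 CPM or more in all lines. Krt19 went the other way, with 7.70 to 198 CPM in EIC and 0 to 0.649 CPM in 16IC. Cdh1 had overlapping groups (56.4 to 307 CPM in EIC, 271 to 1054 CPM in 16IC), and Krt5 was at most 0.0612 CPM. Summed fibroblast markers (11.4 to 104 CPM in EIC, 7.47 to 27.3 in 16IC) and adipocyte markers (0.241 to 42.2, 0.184 to 1.88) were not low in every line. Pdgfra had 87.8, 1.985 and 99.97 CPM in EIC_4026, EIC_NT and EIC_7559, and 4.04 to 15.4 CPM in 16IC. Fabp4 had 22.1, 0.241 and 42.1 CPM in these EIC lines and at most 1.88 CPM in 16IC. Summed endothelial markers were low (0.241 to 3.82 CPM in EIC, 0.181 to 1.10 in 16IC). Leukocyte markers (14.4 to 47.6, 7.77 to 19.01) were nearly all Cd68, with Ptprc at most 0.306 CPM.

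The comparison of 16IC with EIC asks how the lines with the shorter receptor differ. Most well counted lncRNAs had a higher mean level in 16IC: 147 of 201 tested members had a log2 fold change above 0 (median 0.56), where 49.7% of all 13698 tested genes were positive and their median was -0.004. The test passed for 4 members, all of which rose in 16IC: 1810019D21Rik, BC006965, 2610035D17Rik and Snhg14. This is 4 of 201 by edgeR's quasi-likelihood test at a Benjamini-Hochberg adjusted p under 0.05, near the background of 2.45% of all tested genes called in either direction (1.25% higher, 1.2% lower). At an unadjusted p under 0.05 there were 55 higher and 7 lower members, where the background was 12.6% and 10.1%. Every 16IC line exceeded every EIC line for 67 tested members, against 17.2% of all tested genes, and below them for 6, against 14.2%. Among protein-coding genes of the same chromosomes with 300 to 3000 counts, 52.7% were positive and 18.4% lay above and 11.5% below, with a median of 0.04 over 4122 genes, and for the 179 members in that count range the median was 0.60 (0.38 without 16IC_7391). Within that range members had lower counts, with a median summed count of 578 against 1386 for the protein-coding genes. The part of lower counts in the shift was not tested. The 201 tested members are those that passed the filter on low counts, and 4 did not.

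**Figure D1:**
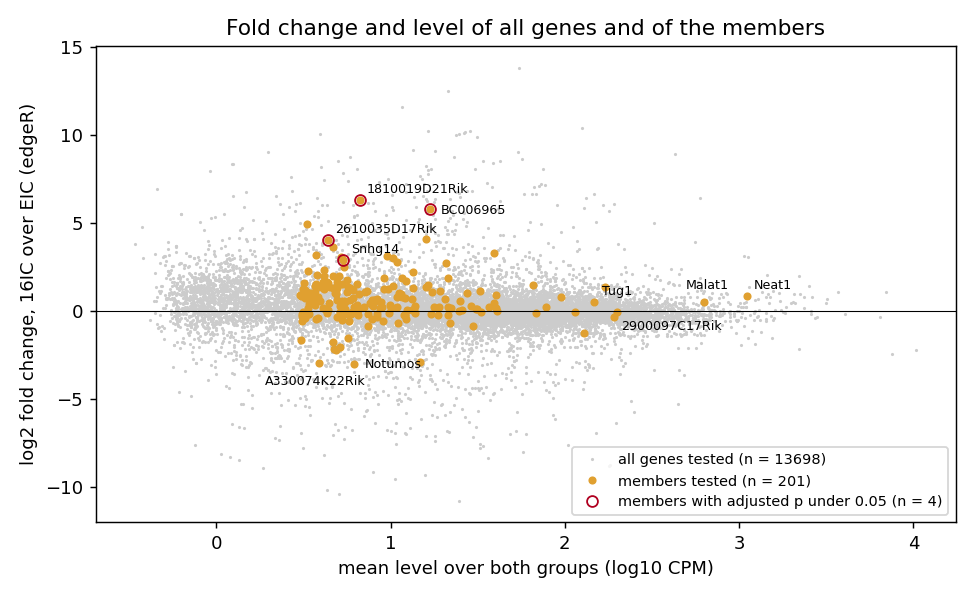
Log2 fold change of 16IC over EIC (vertical axis, edgeR) against mean level over both groups (horizontal axis, log10 CPM). Grey points are all 13698 tested genes, orange points the 201 tested members, and red rings the 4 members with adjusted p under 0.05, all above 0.

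The size of the shift differed between lines. In bulk RNA, fewer cells with a transcript and less of it per cell cannot be told apart. The level of the set in a line, the median over members of log2(CPM + 0.5) after centring each gene on its mean, was -0.07, -0.42, -0.31, 0.11, 0.16, 0.52 in EIC_4026, EIC_NT, EIC_7559, 16IC_1984, 16IC_4982 and 16IC_7391. All 16IC lines were above all EIC lines, with EIC_NT lowest and 16IC_7391 highest. For the protein-coding genes with 300 to 3000 counts the same levels ran from -0.06 to 0.08. Of the 205 members, 99 were highest in 16IC_7391, where 25.5% of all tested genes were highest, and 77 were lowest in EIC_NT, where 20.9% of all tested genes were lowest. Without 16IC_7391 the median log2 fold change was 0.37, with 65.2% of members positive and an all-gene median of -0.02, and without EIC_NT it was 0.54, with an all-gene median of 0.05. Members with at least 600 counts had a median of 0.31, and those that overlap no protein-coding gene one of 0.50 (0.27 without 16IC_7391). Other rarely coding classes, looked at after the values were seen, did not move as 1 block: 35 TEC genes (unverified transcribed regions) of the same chromosomes and counts had a median of 0.89, and 315 pseudogenes one of -0.25. Without 16IC_7391 these were 0.53 and -0.06. The TEC levels were highest in 16IC_7391 (0.70) and the pseudogene levels lowest there (-0.46). The mitochondrial share given above is also highest in 16IC_7391 and higher in all 16IC lines, and its part in the result was not tested.

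**Figure D2:**
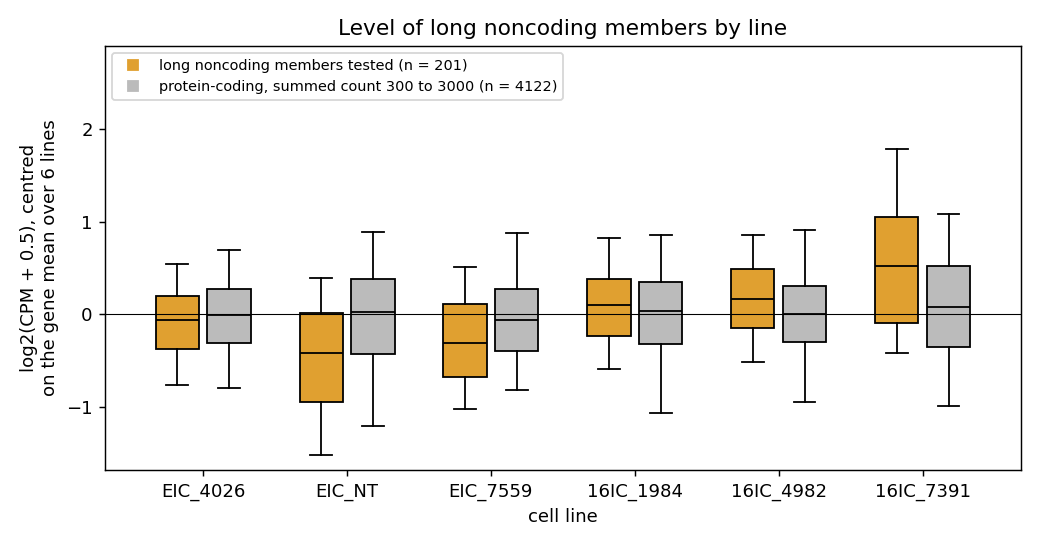
Level of each gene by line, as log2(CPM + 0.5) centred on the gene's mean over the 6 lines (vertical axis), for the 201 tested members (orange) and 4122 protein-coding genes with 300 to 3000 counts (grey). Boxes span the middle quartiles with the median as a line, and whiskers the 10th to 90th percentiles; the member median is lowest in EIC_NT (-0.42) and highest in 16IC_7391 (0.52), and the grey medians stay near 0.

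By annotation, medians were positive in every class, from 0.35 in 86 lincRNA and 0.38 in 56 processed_transcript members to 0.75 in 40 antisense members. The 13 bidirectional-promoter members had a median of 0.61 and the 5 sense-intronic ones one of 1.48, and the single sense_overlapping member stood at 0.17. Without 16IC_7391 the antisense median was 0.48, the bidirectional-promoter median 0.24 and the sense_overlapping value -0.04, and those of the other classes moved by less than 1.5 times. The median SD within groups was 0.50 against 0.42 for protein-coding genes, both at 300 to 3000 counts, on the log2(CPM + 0.5) scale. Counts were not matched within that range, with a median summed count of 578 for members and 1386 for protein-coding genes, and the part of lower counts in this difference was not tested.

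The 4 members that passed the test were nearly silent in EIC or low there. No EIC line had more than 36 counts for any of them. All 4 thus met the count threshold for membership through their 16IC counts, and would have missed it on EIC counts alone. Values in EIC are always given in the order EIC_4026, EIC_NT and EIC_7559, and in 16IC in the order 16IC_1984, 16IC_4982 and 16IC_7391. The largest rise was that of 1810019D21Rik (ENSMUSG00000086390, chromosome 8, 106135400 to 106138525, plus strand, on GRCm38), a processed transcript that starts head to head with Esrp2, a regulator of epithelial splicing, and overlaps its exons. It had 0.171, 0.180 and 0.124 CPM in EIC and 18.8, 16.4 and 4.22 CPM in 16IC. The groups did not overlap, and 16IC_7391 was lowest of its group, as were the epithelial markers Epcam and Cldn7. Its log2 fold change reached 6.30 (SE 0.75, edgeR adjusted p = 0.0360). Esrp2 itself had 1.08, 2.53 and 0.870 CPM in EIC and 105, 114 and 15.8 CPM in 16IC, a log2 fold change of 5.70 (edgeR adjusted p = 0.0432), and was also lowest in 16IC_7391 among the 16IC lines. With exons overlapping and strand use unknown, part or all of the lncRNA count could be Esrp2 reads, which was not tested.

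The start region of 1810019D21Rik is shown because Esrp2 starts within 2000 bases of it, on the opposite strand. It spans 250 bases before to 50 after the start at chr8:106135150-106135449 (GRCm38.p6, plus strand, RefSeq), and capitals mark matches to CACCTG, the E-box bound by ZEB and SNAI repressors, and to GGGCGG, the GC box, on either strand, with no match overlapping another.
1810019D21Rik: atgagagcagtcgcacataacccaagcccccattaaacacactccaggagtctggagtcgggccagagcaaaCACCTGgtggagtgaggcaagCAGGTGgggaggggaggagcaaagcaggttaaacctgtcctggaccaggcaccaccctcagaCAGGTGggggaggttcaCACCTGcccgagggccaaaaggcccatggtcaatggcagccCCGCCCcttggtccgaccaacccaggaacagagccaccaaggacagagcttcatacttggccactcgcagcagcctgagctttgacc
The E-box letters CACCTG occur 4 times in this window, counting both strands. Of 12798 genes with a promoter of this length in the reference table, 2431 held at least 1 such match, and 9 genes (0.0703%) held 4 or more. A match is a description of the letters and not a binding site. Whether the start of Esrp2 lies inside this window was not looked at, so the matches cannot be assigned to its promoter. Among the 109 members with a promoter in the table, 18 held CACCTG, 67 GGGCGG (58.3% of all), 17 the ETS core CCGGAAG (15.7% of all), 13 the MYC E-box CACGTG (9.41%), 12 TATAAA (8.45%) and 7 the AP-1 site TGACTCA (4.11%). A stretch of CTTTT or CTTTC within 15 bases of the start, part of the pyrimidine tract of growth-regulated transcripts, was found in 8 of the 109 and in 5.82% of all, and in 3 of 16 members with snoRNA genes.

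BC006965 and 2610035D17Rik lie on either side of Sox9 on chromosome 11, which encodes a transcription factor of mammary progenitor cells. BC006965 (ENSMUSG00000041674, chromosome 11, 112663927 to 112781976, minus strand) starts 248 bases from Sox9 in the opposite direction, with no exon overlap. It had 0.456, 0.180 and 1.12 CPM in EIC and 13.3, 19.2 and 66.5 CPM in 16IC, so that 16IC_7391 was highest by a wide margin and no EIC line reached any 16IC line. Its log2 fold change came to 5.80 (SE 0.98, edgeR adjusted p = 0.0461). Sox9 had 185, 90.9 and 218 CPM in EIC and 148, 144 and 278 CPM in 16IC, with overlapping groups and a log2 fold change of 0.21 (edgeR adjusted p = 0.806). The lncRNA beside Sox9 thus passed the test and Sox9 did not; the difference between their fold changes was not tested. 2610035D17Rik (ENSMUSG00000087259, chromosome 11, 113043895 to 113201838, minus strand), a lincRNA further along, had 0.285, 0.842 and 0.373 CPM in EIC and 11.1, 9.73 and 3.96 CPM in 16IC. Its groups did not overlap, and 16IC_7391 was lowest of its group (log2 fold change 4.03, SE 0.66, edgeR adjusted p = 0.0432). Its nearest protein-coding gene in the table, the zinc transporter gene Slc39a11, had overlapping groups, with 45.7, 46.3 and 51.4 CPM in EIC and 51.3, 53.9 and 47.8 CPM in 16IC. The start of 2610035D17Rik at chr11:113201789-113202088 (minus strand, GRCm38.p6) holds a TATAAA shortly before the start site and a GC box, in capitals.
2610035D17Rik: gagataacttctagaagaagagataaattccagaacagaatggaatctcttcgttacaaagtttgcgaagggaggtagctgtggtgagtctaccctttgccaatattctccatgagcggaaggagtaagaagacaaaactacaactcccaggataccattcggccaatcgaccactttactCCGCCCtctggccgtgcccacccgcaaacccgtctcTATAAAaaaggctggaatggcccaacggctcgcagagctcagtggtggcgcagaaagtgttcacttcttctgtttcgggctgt

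Snhg14 (ENSMUSG00000100826, chromosome 7, 59307924 to 59975759, minus strand) is the very long imprinted transcript of the Prader-Willi region, whose far end runs antisense to the ubiquitin ligase gene Ube3a. Its body holds 208 annotated snoRNA genes on the same strand. It had 2.05, 0.782 and 0.995 CPM in EIC and 11.4, 9.12 and 7.85 CPM in 16IC, with groups that did not overlap and little spread in 16IC (log2 fold change 2.88, SE 0.48, edgeR adjusted p = 0.0461). Ube3a had 79.7, 97.4 and 105 CPM in EIC and 87.7, 102 and 59.2 CPM in 16IC and did not pass the test (log2 fold change -0.18, edgeR adjusted p = 0.716). These 4 calls rest on few lines: none was kept without EIC_4026, EIC_NT, EIC_7559, 16IC_1984 or 16IC_4982, and all were kept without 16IC_7391. Their adjusted p ran up to 0.154, 0.168, 0.172 and 0.181 for 1810019D21Rik, BC006965, 2610035D17Rik and Snhg14 when a line was left out, and their log2 fold changes stayed within 5.96 to 6.72, 4.78 to 6.64, 3.75 to 4.61 and 2.62 to 3.39.

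Tests other than the main one gave other counts of members. Without 16IC_7391 edgeR called 15 members higher and 5 lower, where it called 6.6% and 6.82% of all tested genes. Without EIC_NT it called 3 higher and 2 lower (0.869% and 1.09% of all), and none of these 5 was among the 4. DESeq2 called 39 higher and 5 lower (8.27% and 7.04% of all), and limma-voom called 3, all higher (1.04% of all), Snhg14 among them. The authors' deposited table has 45 members below an adjusted p of 0.05, of which 38 were higher and 7 lower. Of all its 23449 genes, 8.63% are under that value in either direction. That share includes genes with counts too low to be tested here, so it is not a like background for well counted members.

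Further members with non-overlapping groups had large log2 fold changes without passing the test. Of the rising members named next, all but A530020G20Rik would have missed the count threshold on EIC counts alone, as the 4 called members would. 2610307P16Rik, which lies beside the transcription factor gene Sox4, had 0, 0.601 and 0 CPM in EIC and 5.60, 7.59 and 6.10 CPM in 16IC (log2 fold change 4.95, edgeR adjusted p = 0.106). It was listed at 0 in 2 EIC lines, and its neighbour Sox4 had 75.1, 103 and 126 CPM in EIC and 145, 153 and 122 CPM in 16IC. Gm37233, host of miR-5103, had 3.54, 0 and 1.74 CPM in EIC and 27.8, 30.5 and 31.8 CPM in 16IC (log2 fold change 4.08, adjusted p = 0.124), with 3 nearly equal 16IC lines and 0 counts in EIC_NT. 5830428M24Rik had 0.798, 0.180 and 1.12 CPM in EIC and 9.22, 10.4 and 6.49 CPM in 16IC and an adjusted p of 0.0540 in edgeR. Both 2610307P16Rik and 5830428M24Rik were called by limma-voom and by edgeR without EIC_NT. Gm20544, on chromosome 18 and 441 bases from Smad7, an inhibitor of TGF-beta signalling, had 2.51, 1.98 and 2.36 CPM in EIC and 21.7, 27.0 and 6.42 CPM in 16IC (edgeR adjusted p = 0.0562). Smad7 passed the test, with 35.2, 38.9 and 36.4 CPM in EIC and 134, 161 and 90.2 CPM in 16IC (log2 fold change 1.80, edgeR adjusted p = 0.0369). Both genes of this head-to-head pair were lowest in 16IC_7391 among the 16IC lines. A530020G20Rik, antisense to the choline transporter-like gene Slc44a3, had 4.05, 11.1 and 6.53 CPM in EIC and 15.1, 12.3 and 188 CPM in 16IC, and Slc44a3, which passed the test, had 12.5, 18.6 and 20.2 CPM in EIC and 58.1, 68.1 and 97.1 CPM in 16IC. The lncRNA stood far above the others in 16IC_7391 alone, more than its partner did. Gm16907 had 0.913, 1.44 and 0.995 CPM in EIC and 3.73, 3.12 and 21.016 CPM in 16IC and was likewise highest in 16IC_7391.

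Only 6 tested members had all 16IC lines below all EIC lines, and 5 of these had an unadjusted p under 0.05. On 16IC counts alone these 5 would have missed the count threshold. A330074K22Rik had 5.02, 3.97 and 11.8 CPM in EIC and 0.904, 0.612 and 1.10 CPM in 16IC (log2 fold change -2.98, edgeR adjusted p = 0.0564). It begins head to head with Gse1, which had 27.3, 63.2 and 26.5 CPM in EIC and 64.0, 61.1 and 70.1 CPM in 16IC, with EIC_NT inside the range of the 16IC lines. Notumos, antisense to Notum, which encodes an enzyme that inactivates Wnt ligands, had 3.65, 15.3 and 14.1 CPM in EIC and 0.482, 0.367 and 3.24 CPM in 16IC. Notum had 27.0, 324 and 107 CPM in EIC and 3.43, 5.81 and 29.1 CPM in 16IC, and its groups overlapped, as 16IC_7391 lay above EIC_4026. The others were 4930471E19Rik (-2.04), AC130815.2 (-1.77) and Gm36026 (-1.65), given as log2 fold changes with adjusted p = 0.162, 0.170 and 0.107 in edgeR. Gm36026 overlaps Krt8 on the opposite strand. Its level was 6.27, 4.27 and 3.42 CPM in EIC and 1.20, 1.10 and 2.14 CPM in 16IC, while Krt8 had 1929, 1349 and 1788 CPM in EIC and 2652, 2094 and 580.4 CPM in 16IC, with no shared order of lines.

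**Figure D3:**
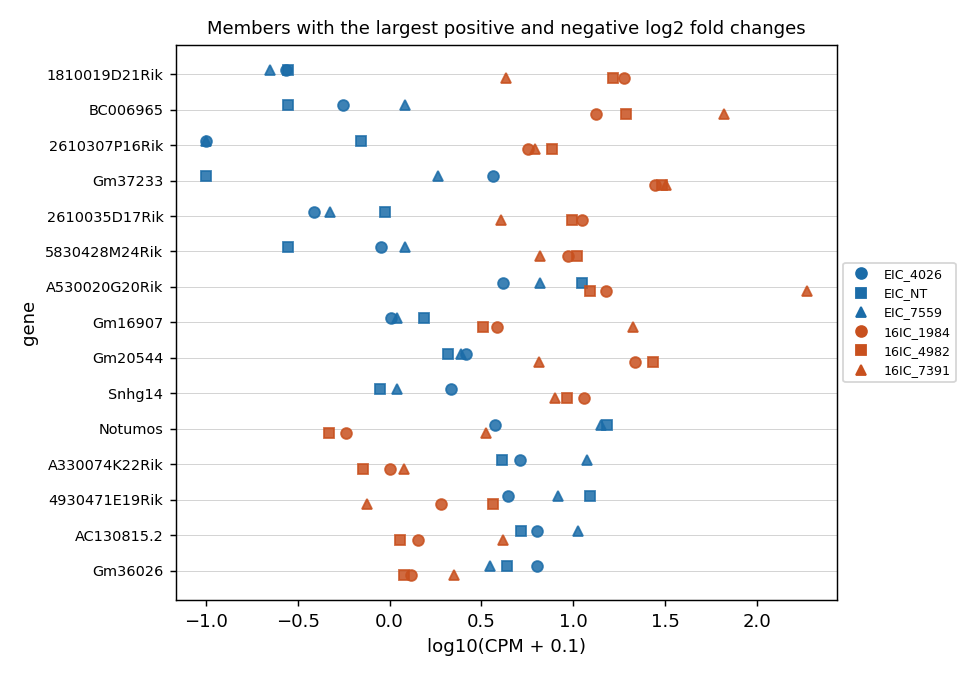
Level of the 10 members with the largest and the 5 with the smallest log2 fold changes among those with non-overlapping groups and an unadjusted p under 0.05, as log10(CPM + 0.1), with 1 symbol per line (EIC blue, 16IC orange). In the upper 10 rows every 16IC symbol lies right of every EIC symbol, and in the lower 5 rows left of it.

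In all, 4 members with large differences were not tested because too few lines had counts: BC018473, 2010300F17Rik, Gm12840 and 6530402F18Rik. BC018473 had 0 counts in all EIC lines and 149, 188 and 2 in 16IC, at least 117-fold higher in 16IC against a floor of 3 counts over the EIC group (counting error only). 2010300F17Rik had 4, 0 and 0 counts in EIC and 168, 141 and 1 in 16IC. Both were thus counted in 16IC_1984 and 16IC_4982 and nearly absent from 16IC_7391. Gm12840 had 144, 0 and 450 counts in EIC and 2, 3 and 5 in 16IC. 6530402F18Rik had 8, 180 and 0 counts in EIC and 3, 2 and 132 in 16IC, so it was high in EIC_NT and 16IC_7391, the lines that stand apart.

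Hosts of miRNAs included members that stood apart in 1 line. Of the 12 hosts, 11 were positive (median log2 fold change 1.35, and 0.77 without 16IC_7391), 8 had every 16IC line higher than every EIC line, and edgeR called 0 (8 at an unadjusted p under 0.05). Of all tested genes 17.2% lay above and 12.6% were higher at that unadjusted p, and the group was put together after the values were seen. 3110039I08Rik, whose body (chromosome 9, 41327077 to 41716994, plus strand) holds the hairpins of miR-100, let-7a-2 and miR-125b-1, had 139, 53.6 and 91.9 CPM in EIC and 259, 274 and 199.7 CPM in 16IC (log2 fold change 1.36, edgeR adjusted p = 0.102). Gm28119 lies inside it on the same strand and had 4.91, 1.20 and 3.48 CPM in EIC and 8.31, 9.36 and 6.81 CPM in 16IC, so the 2 are not independent. Mir22hg had 22.7, 20.5 and 19.2 CPM in EIC and 32.5, 31.3 and 70.1 CPM in 16IC, and 6720427I07Rik, the let-7d host, had 2.05, 2.53 and 2.86 CPM in EIC and 4.52, 4.96 and 9.60 CPM in 16IC; in both, 16IC_7391 was highest. Lncppara, the host of the let-7b and let-7c-2 hairpins printed above, had 3.54, 2.05 and 2.61 CPM in EIC and 3.73, 3.30 and 50.3 CPM in 16IC. A330023F24Rik, the miR-29 host, had 5.99, 1.56 and 8.95 CPM in EIC and 0.783, 1.04 and 107 CPM in 16IC. For both, 16IC_7391 stood far above every other line. Without it the log2 fold change of A330023F24Rik turned from 2.72 to -2.58. C130071C03Rik, the miR-9 host and the 1 host with a negative value, had 7.02, 11.4 and 8.83 CPM in EIC and 6.99, 5.32 and 7.72 CPM in 16IC.

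AL805899.1, the miR-31 host, had 22.2, 0 and 13.9 CPM in EIC and 17.5, 19.8 and 41.8 CPM in 16IC, with 0 counts in EIC_NT. Wincr1, a Wnt-induced lncRNA on the same stretch of chromosome 4, had 9.24, 0 and 4.41 CPM in EIC and 4.9996, 5.14 and 2.21 CPM in 16IC and 0 counts in EIC_NT as well. The methylthioadenosine phosphorylase gene Mtap, further along (89137122 to 89181081), had 753, 0.601 and 916 CPM in EIC and 400.4, 425 and 488 CPM in 16IC, or 10 counts in EIC_NT against 6648 to 14738 in the other lines. Klhl9, on the other side (88718292 to 88722465), had 67.2, 92.1 and 83.3 CPM in EIC and 76.0, 83.3 and 74.3 CPM in 16IC and was not low in EIC_NT. So AL805899.1, Wincr1 and Mtap were all at or near 0 in EIC_NT; Gm12602, between Wincr1 and Mtap, was also at 0 there but had at most 2 counts in the other EIC lines. The cause was not tested. A830082K12Rik was also at 0 in EIC_NT, with 8.10, 0 and 12.7 CPM in EIC and 3.31, 3.73 and 7.01 CPM in 16IC, and its antisense partner Nr2f1, a nuclear receptor gene, had 63.8, 0.601 and 112 CPM in EIC and 19.9, 22.2 and 34.6 CPM in 16IC. Gm13387 (0.962 CPM in EIC_NT and 7.47 to 22.3 CPM elsewhere) and Airn (1.02 and 7.65 to 10.7 CPM) were low in EIC_NT as well. In all, 7 of 205 members (3.41%) were at least 4-fold below every other line in EIC_NT, against 0.971% of all tested genes. Of protein-coding genes with 300 to 3000 counts, 1.53% were. At least 4-fold above every other line in 16IC_7391 were 8 members (3.90%), against 0.730% of all tested genes and 0.898% of those protein-coding genes. Some of the 8 reached the count threshold only with their 16IC_7391 counts, such as AC154691.1 (275 of 353) and Lncppara (775 of 1029). The rule itself can thus raise this share, and all tested genes were not chosen by it.

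Hosts of snoRNAs, whose transcripts are short-lived and linked to ribosome production, were also looked at as a group. Of 20 members with a snoRNA gene in the body, 14 had a positive log2 fold change, the median was 0.19, and Snhg14 was the 1 call, where 2.45% of all tested genes were called. The median was 0.02 without EIC_NT and 0.37 without 16IC_7391. In the list of named snoRNA hosts, 12 of 17 were positive with a median of 0.19, which was 0.00013 without EIC_NT and 0.36 without 16IC_7391. Gas5, a growth-arrest transcript with 10 snoRNA genes in its body, had 89.6, 51.4 and 74.1 CPM in EIC and 73.2, 93.7 and 87.5 CPM in 16IC (log2 fold change 0.24, SE 0.24). Zfas1 had 37.9, 21.2 and 30.5 CPM in EIC and 28.6, 38.6 and 28.8 CPM in 16IC, and Snhg1, with 8 snoRNA genes, had 40.3, 16.1 and 18.7 CPM in EIC and 27.5, 29.2 and 17.4 CPM in 16IC, with overlapping groups in both. Snhg20 had 9.98, 7.34 and 6.09 CPM in EIC and 13.9, 15.6 and 15.6 CPM in 16IC, with groups that did not overlap (log2 fold change 0.94, edgeR adjusted p = 0.123). 2410006H16Rik had 40.2, 26.5 and 48.3 CPM in EIC and 18.4, 29.5 and 15.7 CPM in 16IC (log2 fold change -0.86, edgeR adjusted p = 0.208), and the log2 fold changes of Snhg12 (-0.87) and Snhg8 (-0.50) were also negative without passing the test. Several hosts had their lowest value in EIC_NT, where the level of the 20 was -0.53, against 0.35 in EIC_4026.

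**Figure D4:**
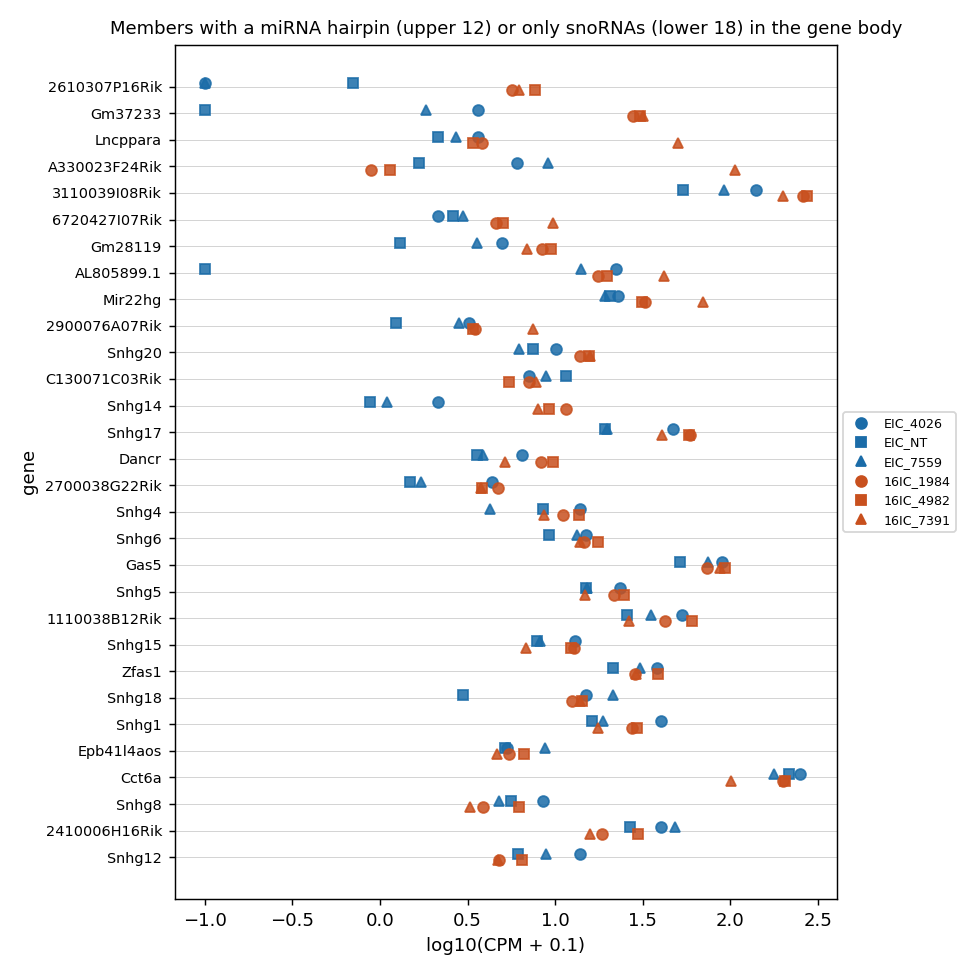
Level of the 12 members with a miRNA hairpin in the gene body (upper rows) and the 18 with snoRNA genes only (lower rows), as log10(CPM + 0.1), each ordered by log2 fold change, with 1 symbol per line (EIC blue, 16IC orange). Lncppara and A330023F24Rik stand apart in 16IC_7391 (50.3 and 107 CPM), AL805899.1 and Gm37233 are at 0 in EIC_NT, and most snoRNA hosts have overlapping groups.

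Of the 5 members in the list of nuclear and abundant lncRNAs, 4 were positive (median log2 fold change 0.52, and 0.30 without 16IC_7391), with 0 calls by edgeR (1 at an unadjusted p under 0.05). Per length, the highest were Malat1, 2410006H16Rik and Neat1, with means of 90.3, 64.4 and 53.2 CPM per kilobase over the 6 lines, where the median member was at 2.59. Malat1 had 601, 389.6 and 564 CPM in EIC and 367, 399.9 and 1461 CPM in 16IC, so 16IC_7391 alone was high, and without it the log2 fold change turned from 0.52 to -0.44. Neat1 had 1108, 432 and 826 CPM in EIC and 1074, 1084 and 2106 CPM in 16IC, also highest in 16IC_7391 and lowest in EIC_NT (log2 fold change 0.85, edgeR adjusted p = 0.324). Tug1, a nuclear lncRNA, had 133, 117 and 120.5 CPM in EIC and 158, 166 and 192 CPM in 16IC, a small difference with groups that did not overlap (log2 fold change 0.48, SE 0.16, edgeR adjusted p = 0.148). It overlaps exons of Morc2a, which had 98.3, 93.5 and 78.3 CPM in EIC and 117, 118 and 212 CPM in 16IC. 2900097C17Rik, the mouse form of Norad, a cytoplasmic RNA that binds Pumilio proteins, was the steadiest of these, with 210.5, 213 and 188 CPM in EIC and 204, 198 and 187 CPM in 16IC and a log2 fold change of -0.05 (SE 0.15). Gm26917, also abundant, had 350.4, 132 and 63.6 CPM in EIC and 76.1, 109 and 47.0 CPM in 16IC, highest in EIC_4026 and lowest in 16IC_7391. The other abundant members Cct6a, Gm49172, Ifi30 and 1110038B12Rik had log2 fold changes of -0.35, 0.42, 0.28 and 0.19, of which none passed the test.

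Among named imprinted lncRNAs, all 4 members had positive log2 fold changes and 1, the Snhg14 already counted among the snoRNA hosts, passed the test, where 49.7% of all tested genes were positive and 2.45% called. Their median log2 fold change was 0.76, and 0.42 without 16IC_7391. That of Peg13 turned from 0.10 to -0.37 without 16IC_7391 and to -0.10 without EIC_NT. Kcnq1ot1, which silences neighbours of Kcnq1, had 3.19, 2.53 and 1.87 CPM in EIC and 3.55, 2.69 and 8.11 CPM in 16IC, highest in 16IC_7391. Airn, antisense to Igf2r, had 10.7, 1.02 and 7.65 CPM in EIC and 10.1, 8.63 and 10.7 CPM in 16IC, and Peg13, inside Trappc9, had 32.2, 21.2 and 37.1 CPM in EIC and 19.9, 26.7 and 50.6 CPM in 16IC, with overlapping groups. Beside developmental transcription factors, Hotairm1, a lncRNA of the HoxA cluster, had 2.05, 2.23 and 1.80 CPM in EIC and 5.48, 5.75 and 4.80 CPM in 16IC, with tight groups that did not overlap (log2 fold change 1.40, SE 0.32, edgeR adjusted p = 0.0758). Foxd2os, in the same list, had a log2 fold change of -0.45. Of the 3 growth-related members Pvt1, beside Myc, had 15.3, 10.8 and 12.6 CPM in EIC and 10.8, 11.7 and 10.8 CPM in 16IC (log2 fold change -0.22), and Lockd, downstream of Cdkn1b, one of -0.31; with Gas5 at 0.24, the test passed for none. Of the immune list, AW112010, an interferon-induced lncRNA, had 1.83, 18.6 and 2.80 CPM in EIC and 0.422, 0.306 and 4.41 CPM in 16IC, highest in EIC_NT, and Bvht had a log2 fold change of 0.07. The miRNA-host list held 4 members, all positive, with a median of 2.18 (0.59 without 16IC_7391) and 2 at an unadjusted p under 0.05. No hairpin lies in the body of its members Mirt1 and Gm26532 in the sources used here, so the list median is not one of miRNA hosts alone. Mirt1 had 4.22, 0.481 and 1.24 CPM in EIC and 24.9, 22.7 and 3.5027 CPM in 16IC, and Gm26532 3.14, 2.05 and 0.808 CPM in EIC and 2.35, 3.61 and 12.8 CPM in 16IC.

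For each member the overlapping or nearest protein-coding gene was taken as its partner, and both were tested for 183 pairs. Across the 62 tested pairs that overlap on opposite strands, Pearson's r of the log2 fold changes was 0.65 and Spearman's rho 0.54, and 42 had the same sign. Across the 106 pairs that do not overlap, r was 0.16 and rho 0.25, with the same sign in 63, and across the 15 same-strand overlaps r was 0.15 and rho 0.26. These are descriptions across genes, which are not independent replicates, and opposite-strand pairs can share reads. The median log2 fold change was 0.11 over partners and 0.60 over members of these pairs. Of the tested partners 8 were called, 5 higher and 3 lower, where 1.25% and 1.2% of all tested genes were called. The higher ones were Esrp2, Smad7, Ubash3b, Zbtb37 and Slc44a3, and the lower ones included Jun and the heat-shock gene Hspa1b. Junos, antisense to Jun, had a log2 fold change of -0.71 where Jun, an AP-1 subunit, fell by 1.33 (edgeR adjusted p = 0.0390). Some overlapping pairs differed in size. Lsr, a junction protein gene of epithelia, had 0.114, 0.120 and 0.435 CPM in EIC and 113, 139.6 and 1.23 CPM in 16IC, and its antisense member Gm4673 had 3.99, 3.31 and 2.92 CPM in EIC and 10.2, 10.3 and 4.41 CPM in 16IC. So Gm4673 was counted in EIC, where Lsr was nearly absent. AC154691.1 and the potassium channel gene Kcnj15 were both highest in 16IC_7391, with 1.03, 0.361 and 0.808 CPM in EIC and 1.02, 1.47 and 17.8 CPM in 16IC for the lncRNA and 38.6, 5.59 and 29.5 CPM in EIC and 71.0, 85.1 and 682 CPM in 16IC for Kcnj15.

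**Figure D5:**
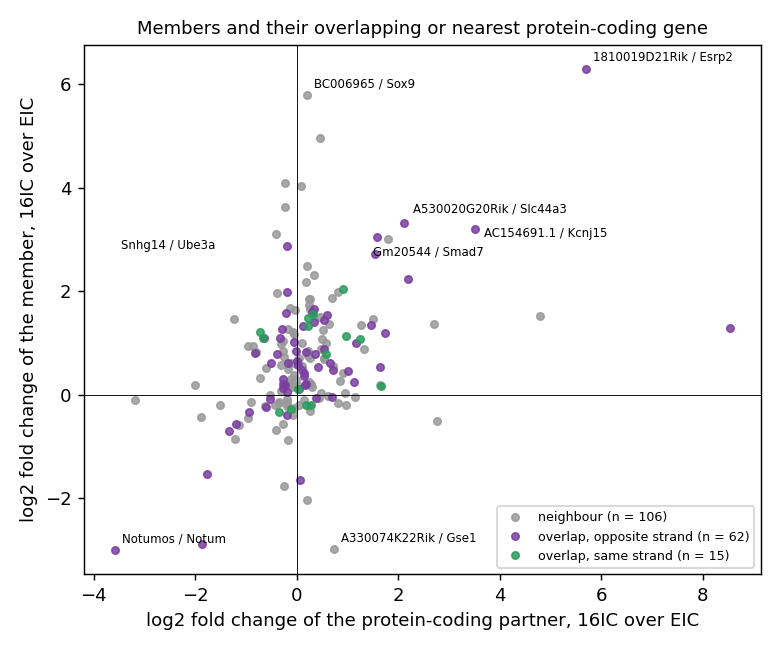
Log2 fold change of 16IC over EIC for each member (vertical axis) against that of its overlapping or nearest protein-coding partner (horizontal axis), for 183 pairs with both tested. Purple points (62 overlaps on opposite strands) run along the diagonal more than grey points (106 neighbours), and BC006965 and Snhg14 lie high with partners near 0.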

How the data were processed

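RNA sequencing gave 1 library per line. The deposited table holds raw counts per gene, normalised counts (a signal, each count divided by 1 size factor per library), FPKM, log2 fold changes and p-values, all made by the authors. The submitters' processing notes name Trimmomatic, HTSeq, STAR, limma and edgeR and builds mm10 and GRCm38; roles, versions and strand use: not given in the sources used here. Here edgeR 4.0.16 (quasi-likelihood test, TMM, filterByExpr) was run in R 4.3.3 on the deposited counts of all 6 lines, without covariates, and p-values were adjusted by Benjamini-Hochberg over 13698 tested genes. DESeq2 1.42.0 and limma 3.58.1 (voom) were alternatives. The test was also run on simulated counts with the same variability set for every gene and no line standing apart. Those settings differ from these data, so that check does not show how reliable the calls here are. The deposited signal and FPKM values by the authors entered no test. Gene-body overlaps and partners come from the gene positions in the deposited table. Exon overlaps and snoRNA genes come from GENCODE M21, and sequences from RefSeq, GRCm38.p6.

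Named were members past an adjusted p of 0.05, the 10 largest positive and up to 10 negative log2 fold changes (5 found) among non-overlapping members with an unadjusted p under 0.05, the 10 highest levels per length, members of 7 lists, up to 4 members standing alone in EIC_NT or 16IC_7391, partners, and members at the threshold. The members and lists were chosen with earlier results of these data known. The miRNA hosts 3110039I08Rik, Gm28119, 6720427I07Rik and C130071C03Rik, the untested members, Junos, Gm4673 and the members RefSeq lists as protein-coding were named after their values were seen.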

Additional observations from a re-analysis of the deposited data

How the results depend on the processing

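The 4 member calls by edgeR stood with DESeq2's size factors, upper-quartile factors, a minimum of 1 CPM in 3 libraries and a robust fit. Called members numbered 2 with no filter on low counts (2 higher; 223 of all genes, against 335), 44 with DESeq2 (39 higher, 5 lower; 2098 of all genes), 16 at an adjusted p under 0.1 (15 higher, 1 lower; 1184 of all genes), 2 among members with at least 600 counts (median log2 fold change 0.31) and 2 among members without overlap. With 16IC_1984 and 16IC_4982 summed as 1 sample edgeR called 0 members and 0 genes (48 members at an unadjusted p under 0.05), and at an adjusted p under 0.01 it called 0 members and 0 genes (62 at an unadjusted p under 0.05), where DESeq2 called 44 and limma-voom 3 at 0.05. Leaving out each line in turn gave 0 to 20 called members (0 to 15 higher, 0 to 5 lower), 0 to 1913 called genes and medians of 0.37 to 0.61. The calls of 0 came without EIC_4026, EIC_7559, 16IC_1984 or 16IC_4982 (34 to 56 members at an unadjusted p under 0.05), with 20 without 16IC_7391 and 5 without EIC_NT. With members that RefSeq lists as protein-coding left out, an alternative chosen after seeing the data, 4 were called.

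Of 61 named members, none of the 4 called ones changed sign. With limma-voom the log2 fold change reversed to -0.018 for A330023F24Rik, 0.37 for Gm13387, 1.60 for A830082K12Rik, -0.023 for Bvht, 1.84 for Wincr1 and 0.067 for Snhg1. With upper-quartile factors the log2 fold change reversed to 0.0062 for 2900097C17Rik and 0.029 for Snhg1. Over the fits that leave out 1 line, sign changes gave ranges of -2.58 to 3.29 for A330023F24Rik (without 16IC_7391), -0.46 to 1.31 for F730043M19Rik (without 16IC_7391), -0.71 to 0.022 for Foxd2os (without EIC_4026), -0.44 to 0.84 for Malat1 (without 16IC_7391), -0.016 to 0.81 for Snhg4 (without EIC_7559) and -0.35 to 0.086 for Epb41l4aos (without EIC_7559). Ranges were -0.14 to 0.49 for 1110038B12Rik (without EIC_NT and 16IC_4982), -1.01 to 0.012 for Gm13387 (without EIC_7559), -1.16 to 0.19 for A830082K12Rik (without EIC_7559), -0.013 to 0.40 for Snhg15 (without 16IC_1984), -0.10 to 0.30 for Zfas1 (without EIC_NT and 16IC_4982) and -0.37 to 0.36 for Peg13 (without EIC_NT and 16IC_7391). They were -0.49 to 0.37 for Bvht (without EIC_7559 and 16IC_7391), -0.74 to 0.87 for Wincr1 (without EIC_4026 and 16IC_7391), -0.44 to 0.58 for Snhg18 (without EIC_NT and 16IC_4982) and -0.26 to 0.50 for Snhg1 (without EIC_4026 and 16IC_7391). The lines in brackets are those whose removal reversed the sign. The cause was not tested. No paired analysis was possible because the labels carry no replicate numbers that pair lines of the groups.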
